A study of Mus musculus with 34 samples.

Results

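Induced cardiomyocytes (iCM) made directly from mouse cardiac fibroblasts were compared at 4 weeks with fibroblast cultures on day 14 after the same infection. The members are 4 of the 34 arrays of the series, taken by sample title: 2 arrays of 4-week iCM and 2 arrays of day 14 cells, called MGT D14 here. All 4 samples carry the CD1 strain label and the aMHC-GFP genotype, a reporter driven by the alpha myosin heavy chain promoter, and all descend from cardiac fibroblasts of pups at postnatal day 1.5. Both groups received a retrovirus that carries Mef2c, Gata4 and Tbx5 (MGT) on 1 transcript, so neither is an untreated control. The labels place contractile iCM in StemPro-34 medium with ascorbic acid, VEGF, bFGF and FGF10. They do not give the medium of the day 14 cells, name no sort for GFP, and leave the origin of the replicates unstated. The p-values thus measure only the spread between replicate arrays, pooled over the 24 arrays of 12 groups in the fit. No culture given LacZ virus and kept for 4 weeks was analysed here, so time in culture, medium and the delivered factors cannot be told apart as sources of a change. The groups set beside them are fibroblasts before infection (CF D0), MGT cells on days 3, 5, 7 and 10, fibroblasts given LacZ virus for 14 days (LacZ D14), and fresh neonatal fibroblasts (neoCF) and cardiomyocytes (neoCM), with 2 arrays each.

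In direct reprogramming the delivered transcription factors switch on genes of the contractile apparatus in a fibroblast without passing through a stem cell state. The early phase is marked by loss of fibroblast programmes and by the first sarcomere transcripts, and beating cells appear later in a minority of the culture. Maturation of a cardiomyocyte in the heart involves exit from the cell cycle, a switch from glucose to fatty acids as fuel, and replacement of fetal and skeletal muscle isoforms by adult cardiac ones. Cardiac fibroblast cultures also hold macrophages, epicardial cells and perivascular cells, which are not reprogrammed in the same way.

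Levels are given as log2 of the fluorescence intensity relative to the 75th percentile of the same array, and a change is the 4-week iCM mean minus the MGT D14 mean on that scale. A gene was called at an adjusted p under 0.05 (limma, Benjamini-Hochberg over all genes tested) and a change of at least 2-fold. Each of the 4 arrays had 36458 to 42078 spots well above background. Replicates correlated at r = 0.995 for 4-week iCM and 0.997 for MGT D14 across genes, which are not independent replicates. The 4-week iCM arrays lay on slide 2, scanned on the first of 3 scan days together with a neoCM array, and the MGT D14 arrays lay on slide 6, scanned on the third, so slide and scan day cannot be told apart from the change. The slopes of the spiked-in control transcripts were 1.01 and 1.05 on the 4-week iCM arrays and 0.994 and 1.01 on the MGT D14 arrays.

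The label was checked against markers. The cardiomyocyte markers were present on all 4 arrays: Myh6, the alpha myosin heavy chain, lay at 7.21 and 6.90 in 4-week iCM and 7.27 and 7.10 in MGT D14, and Tnnt2, cardiac troponin T, at 7.38 and 6.96 in 4-week iCM and 8.02 and 7.97 in MGT D14. On LacZ D14 arrays Myh6 lay at -3.04 and -3.49, and on neoCM arrays at 8.60 and 8.70. Nkx2-5, a defining cardiac transcription factor, was weak at -3.76 and -3.59 in 4-week iCM and -3.93 and -4.09 in MGT D14. The fibroblast markers were present as well: Col1a1, a chain of fibrillar collagen, stood at 5.97 and 5.70 in 4-week iCM and 6.29 and 5.996 in MGT D14, and Thy1, a surface protein of fibroblasts, at 5.37 and 5.33 in 4-week iCM and 5.95 and 5.90 in MGT D14. Both groups thus held cardiomyocyte and fibroblast transcripts side by side. In RNA from a whole culture, fewer cells of a type and less RNA per cell cannot be told apart.

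Of 18244 genes tested, 1863 (10.2%) were higher in 4-week iCM and 2470 (13.5%) were lower, 23.8% in all. The median change over all genes was -0.07. At least 4-fold changes numbered 817 rises and 850 falls, and at least 32-fold changes 91 rises and 33 falls. A further measure of how far the groups stood apart is that 11092 genes passed the adjusted p without the fold. Of the genes called higher, 200 had no signal above background in MGT D14, and of those called lower, 483 had none in 4-week iCM. Such genes are given as at-least folds, the mean of the bright side against the lowest level that counted as signal, or against the gene's own reading where that was higher, on the dim arrays.

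Among 49 gene lists, cell cycle genes had the lowest median change. Adipocyte markers had the highest over all genes tested, which counts readings below background, but not where only probes above background on all 4 arrays were kept. Epicardial genes, complement, Wnt pathway members and receptors for circulating hormones held more rises than the 10.2% over all genes. DNA replication, macrophage, interferon and cartilage genes held more falls than the 13.5% over all genes.

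**Figure D1:**
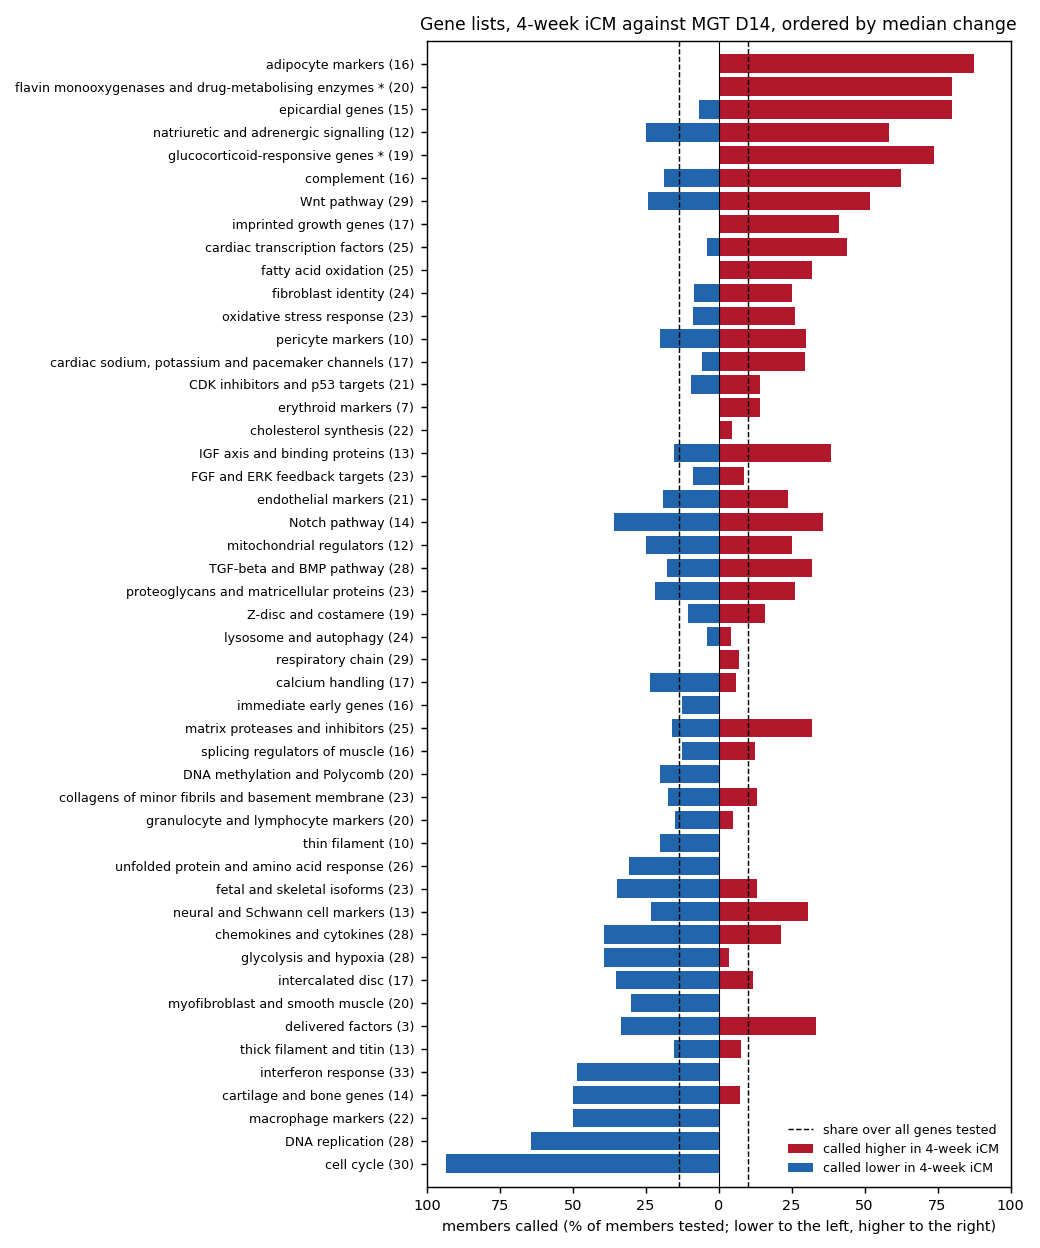
Share of the tested members of each list (number in brackets) called higher (red, right) or lower (blue, left) in 4-week iCM than in MGT D14, with the lists ordered by median change; dashed lines mark 10.2% and 13.5%, the shares over all genes tested, and an asterisk marks the 2 lists written after values had been seen. Adipocyte markers stand at the top with 87.5% called higher, and cell cycle genes at the bottom with 93.3% called lower.

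Flavin-containing monooxygenases, which oxidise nitrogen and sulfur in drugs and other compounds, were among the genes with the largest rises. Fmo2 lay at 5.39 and 5.08 in 4-week iCM and -3.42 and -3.58 in MGT D14 (change 8.74, SE 0.16, adjusted p = 9.4e-14), and on LacZ D14 arrays it was -1.003 and -1.15. Fmo1 read 0.91 and 1.24 in 4-week iCM and -8.89 and -8.76 in MGT D14 and was at least 235-fold higher (adjusted p = 3.7e-14), and Fmo4 read -3.90 and -3.47 in 4-week iCM and -8.50 and -8.40 in MGT D14 and was at least 8.7-fold higher (adjusted p = 3.6e-07). For these genes both 4-week iCM arrays were above both MGT D14 arrays. Their probes lie on chromosome 1 (mm9, Fmo4 at chr1:164724109-164724168, Fmo1 at chr1:164760037-164760096 and Fmo2 at chr1:164806827-164806886).

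Other genes among the 12 largest rises were Cfd, Cyp2f2, Adh1, Adipoq, Wfdc21, Alas2, Galnt15, Retn and Agtr2. Cyp2f2, a cytochrome P450 best known from the airway, was at least 446-fold higher (adjusted p = 6.6e-09). Adh1, which oxidises retinol and ethanol, was at least 707-fold higher (adjusted p = 1.4e-10), and Wfdc21, a small secreted protein with a whey acidic domain, was at least 382-fold higher (adjusted p = 6.6e-10). Agtr2, the type 2 receptor of angiotensin II, was at least 91.6-fold higher (adjusted p = 1.6e-09), and Galnt15, an enzyme that starts mucin-type sugar chains, rose by 9.28 (adjusted p = 9.1e-10) from a level that was above background on 1 of the 2 MGT D14 arrays. Alas2, the erythroid form of the first enzyme of haem synthesis, read 5.20 and 5.34 in 4-week iCM and -4.42 and -3.69 in MGT D14 (change 9.32, SE 0.43, adjusted p = 3.8e-10). It was the sole erythroid marker of 7 tested that was called: Hba-a1 and Hba-a2, which encode alpha globin, had a difference of -0.24 (adjusted p = 0.37) and -0.57 (adjusted p = 0.12), and Hbb-bt, beta globin, was not well above background on any of the 4 arrays. On neoCM arrays Alas2 lay at 5.02 and 5.05, close to the 4-week iCM reading.

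The largest falls were those of Mtnr1a, Myh15, Cd52, Kcnj10, Il7r, Cd72, Arg1, Sprr1a, Sirpb1a, Cdhr3, Csta2 and Cx3cr1. Mtnr1a, a melatonin receptor, read -4.89 and -5.35 in 4-week iCM and 4.09 and 3.98 in MGT D14 (change -9.15, SE 0.15, adjusted p = 3.7e-14), with 1.94 and 1.96 on LacZ D14 arrays. Myh15, a slow myosin heavy chain of extraocular muscle, was at least 42.8-fold lower (adjusted p = 2.3e-09), and it stood at -7.01 and -6.69 on LacZ D14 arrays, near background. Cd52, Il7r, Cd72, Arg1, Sirpb1a and Cx3cr1 are known from white blood cells. Cd52, a small surface glycoprotein of leukocytes, read -3.33 and -3.22 in 4-week iCM and 3.76 and 4.20 in MGT D14, and Cd72, a receptor of B cells and macrophages, read -3.83 and -4.02 in 4-week iCM and 2.79 and 3.04 in MGT D14. Both were also high on LacZ D14 arrays, at 5.06 and 4.92 and at 3.39 and 3.55.

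Cell cycle genes fell almost as a body. Of 30 tested, 28 were lower in 4-week iCM, none was higher, and the median change was -2.42, against -0.07 over all genes. Mki67, the Ki-67 proliferation antigen, read 0.02 and 0.17 in 4-week iCM and 3.20 and 3.44 in MGT D14 (change -3.22, SE 0.20, adjusted p = 8.7e-09). Top2a, the topoisomerase that untangles replicated chromosomes, read -2.59 and -1.92 in 4-week iCM and 0.64 and 0.86 in MGT D14 (change -3.01, SE 0.22, adjusted p = 4.5e-08). The mitotic regulators fell with them: Cdk1, the kinase that drives entry into mitosis, by 2.50 and its partner Ccnb1 (cyclin B1) by 2.83. Aurkb, the Aurora kinase of the chromosomal passenger complex, was at least 8.3-fold lower (adjusted p = 4.6e-09), and Ccne2, cyclin E2, was at least 4.18-fold lower (adjusted p = 1.9e-08). For each of these genes both 4-week iCM arrays were below both MGT D14 arrays. The exceptions were the D-type cyclins, which answer to growth factor signals: Ccnd1 had a difference of 0.59 (adjusted p = 1.1e-05) and Ccnd2 of 0.31 (adjusted p = 0.053), and neither reached 2-fold.

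The 4-week iCM arrays were also below the neoCM arrays scanned on the same day. On neoCM arrays the median difference of the cell cycle list from MGT D14 was 0.90 and 0.88, whereas it was -2.46 and -2.41 on the 4-week iCM arrays, and 1 of the neoCM arrays shared slide 2 with them. LacZ D14 arrays stood at 0.22 and 0.31. The day 14 cultures with and without the factors were thus close to each other, and the 4-week cultures lay below every other group set beside them.

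Promoters of such genes often carry a CCAAT box together with a cell cycle genes homology region (CHR), through which the DREAM and MMB complexes repress and activate mitotic genes. The 250 bases before the start site (RefSeq, GRCm38.p6) were searched on both strands for the letters TTTGAA (CHR) and CCAAT. The table of promoters held 22 of the 30 cell cycle genes. TTTGAA was in a window of 9 of these 22 genes (40.9%), against 13.9% of the 13928 tested genes with a window. CCAAT was in a window of 17 (77.3%), against 39.5%. A gene with several start sites was counted if any of its windows held the letters. Among genes with a window, CCAAT was also found for 62.5% of DNA replication genes and 66.7% of glucocorticoid-responsive genes. TTTGAA was found for 26.7% of flavin monooxygenases and drug-metabolising enzymes. A match is a description of letters and not evidence that a factor is bound. The windows of Mki67 and Top2a are shown since these are the largest falls among members that hold both; capitals mark the letters TTTGAA and CCAAT or their reverse complements.
Mki67 (chr7:135716380-135716629, minus strand): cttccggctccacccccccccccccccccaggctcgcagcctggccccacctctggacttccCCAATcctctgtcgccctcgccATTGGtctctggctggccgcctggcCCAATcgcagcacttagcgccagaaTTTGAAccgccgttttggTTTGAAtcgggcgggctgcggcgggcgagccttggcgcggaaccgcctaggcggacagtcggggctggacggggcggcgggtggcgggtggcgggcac
Top2a (chr11:99024190-99024439, minus strand): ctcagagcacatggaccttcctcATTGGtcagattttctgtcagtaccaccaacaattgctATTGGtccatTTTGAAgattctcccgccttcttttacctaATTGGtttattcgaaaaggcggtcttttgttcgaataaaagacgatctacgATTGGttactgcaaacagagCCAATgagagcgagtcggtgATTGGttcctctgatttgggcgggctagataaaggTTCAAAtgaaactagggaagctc
The window of Mki67 holds TTTGAA at 2 places, the nearer ending at position -93 from the start site, and that of Top2a holds it on both strands.

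DNA replication genes fell in part. Of 28 tested, 18 were lower and none was higher, with a median change of -1.34. Uhrf1, which keeps methylation on newly copied DNA, read -1.03 and -1.45 in 4-week iCM and 1.89 and 2.02 in MGT D14 (change -3.20, SE 0.19, adjusted p = 4.6e-09). The licensing factors Cdc6 and Cdt1, which load the helicase on origins, fell by 2.88 and 2.25, and the helicase subunits Mcm5 and Mcm6 by 1.98 and 1.70. Other subunits of the same helicase differed: Mcm4 had a difference of 0.09 (adjusted p = 0.53) and Mcm7 of -0.26 (adjusted p = 0.08). E2f1, the transcription factor that drives many of these genes, had a difference of 0.00 (adjusted p = 1). The letters TTTGGCGC, a common form of the E2F site, were in a window of 3 of 24 genes of this list (12.5%). These were Mcm5, Mcm6 and Pola1, and the share over all tested genes with a window was 0.761%. The window of Mcm6 is shown since it holds the letters at 2 places, in capitals.
Mcm6 (chr1:128359706-128359955, minus strand): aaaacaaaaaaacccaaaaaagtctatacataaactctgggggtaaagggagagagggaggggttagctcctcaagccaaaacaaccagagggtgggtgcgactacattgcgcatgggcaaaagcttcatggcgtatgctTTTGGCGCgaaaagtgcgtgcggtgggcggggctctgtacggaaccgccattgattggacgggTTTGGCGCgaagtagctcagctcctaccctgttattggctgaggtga

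Among inhibitors of the cycle and targets of p53, 3 of 21 rose and 2 fell. Cdkn1c (p57), an inhibitor of cyclin-dependent kinases expressed from the maternal allele, read 3.79 and 3.73 in 4-week iCM and -2.01 and -1.93 in MGT D14 (change 5.73, SE 0.19, adjusted p = 1.6e-11). Cdkn2a, the locus of p16 and p19, rose by 1.29 (adjusted p = 2.1e-06), and Trp53inp1, a p53 target, by 1.29 (adjusted p = 4.9e-09). The call of Cdkn2a was lost with all 34 arrays in the fit (1.29, adjusted p = 0.15) and with slide as a random block (1.24, adjusted p = 0.11). Both fits bring in fresh neonatal cells and cardiomyocytes derived from induced pluripotent stem cells (iPSC). Replicates of 1 such group lay far apart (r = 0.892), and their spread enters these fits. Cdkn1a (p21) had a difference of 0.42 (adjusted p = 0.0024), short of 2-fold. Lmnb1, the B-type lamin whose loss accompanies senescence, read -1.47 and -2.06 in 4-week iCM and 1.12 and 1.41 in MGT D14 and fell by 3.03 (adjusted p = 5.2e-07).

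**Figure D2:**
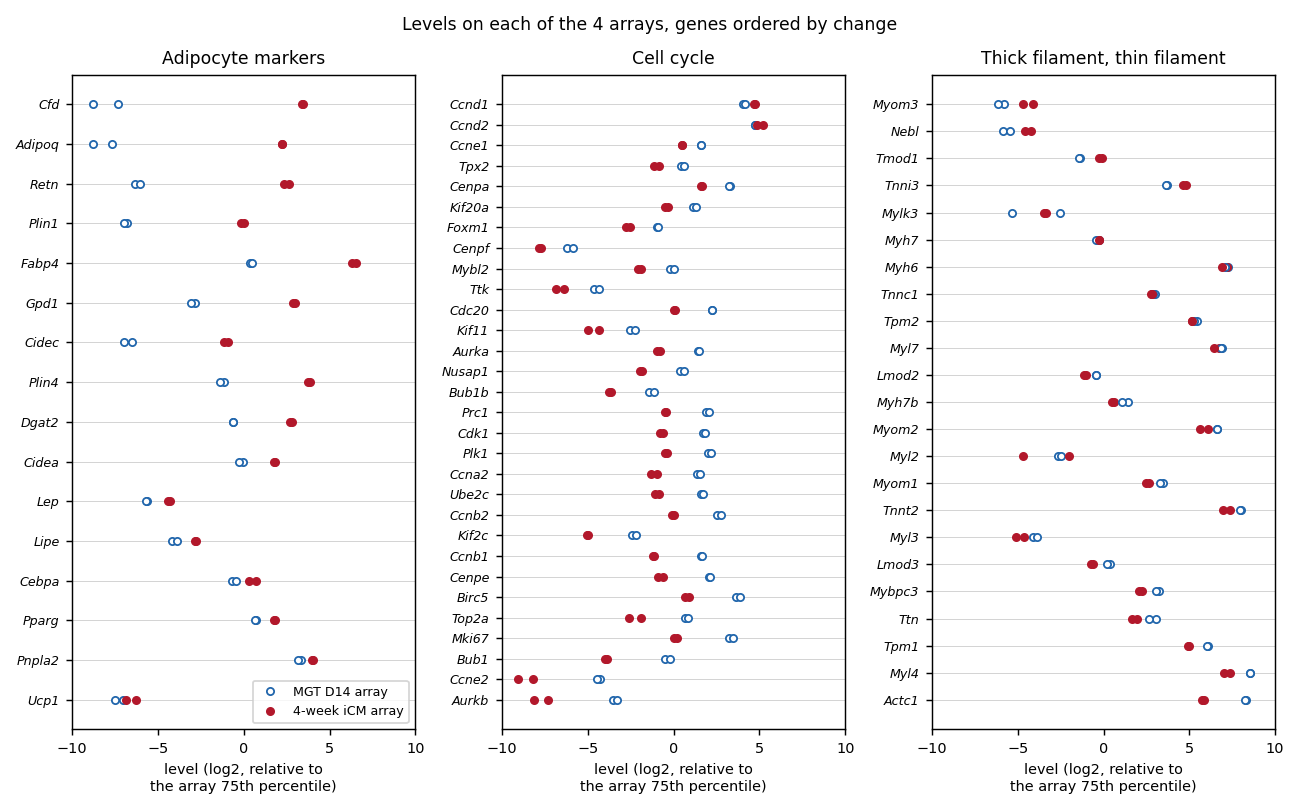
Level of each adipocyte marker, cell cycle gene and filament gene on the 2 arrays of 4-week iCM (filled red) and the 2 arrays of MGT D14 (open blue), as log2 relative to the array's 75th percentile, with genes ordered by change. The points of a gene's replicates mostly lie close together, with exceptions such as Myl2 in 4-week iCM and Cfd and Adipoq in MGT D14. Adipocyte markers lie to the right in 4-week iCM and cell cycle genes to the left, while Myh6 and Myh7 overlap.

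Genes of the contractile filaments did not rise further as a group after day 14. Of 13 genes of the thick filament and titin, 1 was higher and 2 were lower (median -0.77). Of 10 of the thin filament, none was higher and 2 were lower (median -0.42). With only the 4 arrays compared in the fit, 3 of the thin filament list were higher. With normexp background correction or the authors' log2 values, 1 of them was higher. In the thick filament list, 3 were lower and none was higher with normexp background correction. There, 3 were also lower with scaling to the median of probes above background. Under quantile normalization or with all 34 arrays in the fit, 1 was lower. Without 4-week iCM replicate 2, 4 of the thick filament list were lower, and without MGT D14 replicate 1, 2 were higher. Myl7, the atrial regulatory light chain, read 6.73 and 6.46 in 4-week iCM and 6.93 and 6.84 in MGT D14, a change of -0.29 (adjusted p = 0.28). Myl4, the atrial essential light chain, read 7.39 and 7.03 in 4-week iCM and 8.56 and 8.54 in MGT D14 (change -1.34, SE 0.13, adjusted p = 5.9e-07), and Ttn, titin, fell by 1.05 (adjusted p = 0.012). Actc1, cardiac alpha actin, read 5.76 and 5.87 in 4-week iCM and 8.29 and 8.22 in MGT D14 (change -2.44, SE 0.11, adjusted p = 4.1e-10), a fall in both replicates. Tpm1, tropomyosin, fell by 1.13 (adjusted p = 1.8e-08). These falls other than that of Actc1 lay near the 2-fold limit. The call of Ttn was lost under quantile normalization (-1.09, adjusted p = 0.072), with all 34 arrays in the fit (-1.05, adjusted p = 0.11), with slide as a random block (-1.06, adjusted p = 0.068), without 4-week iCM replicate 1 (-0.90, adjusted p = 0.074) and without MGT D14 replicate 1 (-0.86, adjusted p = 0.088). That of Tpm1 was lost with the authors' log2 values (-0.90, adjusted p = 8e-06) and over the mean of its probes (-0.61, adjusted p = 1.6e-05), and that of Myl4 under quantile normalization (-0.73, adjusted p = 4.1e-06) and with the authors' log2 values (-0.60, adjusted p = 0.0044). Tnni3, the adult cardiac troponin I, read 4.63 and 4.83 in 4-week iCM and 3.69 and 3.63 in MGT D14. Its change of 1.07 (adjusted p = 0.081) was not called. Tnni3 was called higher with only the 4 arrays compared in the fit (1.07, adjusted p = 0.0027). The same held with normexp background correction (1.05, adjusted p = 0.0033) and the authors' log2 values (1.11, adjusted p = 0.0028). The postnatal switch partner Tnni1 had a difference of -0.57 (adjusted p = 0.03). Myh7, the beta heavy chain, had a difference of 0.08 (adjusted p = 0.75), and Myl2, the ventricular light chain, of -0.79 (adjusted p = 0.23). Without 4-week iCM replicate 2, the change of Myl2 was -2.14, so its 2 readings in 4-week iCM lay far apart.

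At the Z-disc, 3 of 19 genes rose and 2 fell. Actn2, the alpha-actinin that anchors thin filaments, read 2.92 and 3.08 in 4-week iCM and 1.64 and 1.58 in MGT D14 (change 1.39, SE 0.33, adjusted p = 0.0024), and Myoz2, calsarcin 1, rose by 1.18 (adjusted p = 8.4e-08). Csrp3, the muscle LIM protein, read 0.57 and 0.63 in 4-week iCM and 3.05 and 2.98 in MGT D14 (change -2.42, SE 0.48, adjusted p = 0.00062). Ankrd1, a stretch-responsive titin partner, fell by 1.001 (adjusted p = 1.8e-06). The call of Actn2 was lost with all 34 arrays in the fit (1.39, adjusted p = 0.12) and with slide as a random block (1.40, adjusted p = 0.076), and that of Ankrd1 under quantile normalization (-0.66, adjusted p = 1.6e-06), with the authors' log2 values (-0.60, adjusted p = 3.2e-05), with slide as a random block (-0.9997, adjusted p = 0.012), without 4-week iCM replicate 2 (-0.91, adjusted p = 5.6e-05) and without MGT D14 replicate 1 (-0.95, adjusted p = 6.2e-05).

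The fetal and skeletal muscle isoforms went down more often than up, 8 against 3 of 23. Over all genes tested, falls also outnumbered rises, at 13.5% and 10.2%. The count was 6 against 3 with normexp background correction or the authors' log2 values, and 6 against 4 under quantile normalization. Where only probes above background on all 4 arrays were kept, it was 6 against 4 of 18. Tnnt3, the fast skeletal troponin T, read -0.14 and 0.02 in 4-week iCM and 3.80 and 3.68 in MGT D14 (change -3.80, SE 0.13, adjusted p = 1.2e-11). Tnni2, the fast skeletal troponin I, read -1.42 and -1.41 in 4-week iCM and 2.26 and 2.25 in MGT D14 (change -3.67, SE 0.44, adjusted p = 6e-06). Myod1, the skeletal muscle master regulator, was at least 4.24-fold lower (adjusted p = 9e-07). Acta1, skeletal alpha actin, fell by 1.37 (adjusted p = 3.7e-07). Against this direction, Actn3, the alpha-actinin of fast fibres, read 2.03 and 2.21 in 4-week iCM and -3.42 and -3.41 in MGT D14 (change 5.53, SE 0.24, adjusted p = 2.2e-10), and Mybpc1, slow myosin-binding protein C, rose by 2.22. Myog, the partner of Myod1 in myotube formation, was weak in both groups, and its change of -0.70 (adjusted p = 0.079) was not called.

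Of 17 calcium handling genes, 1 was higher and 4 were lower. Ryr2, the calcium release channel, read 1.45 and 1.51 in 4-week iCM and 0.95 and 0.95 in MGT D14, a change of 0.53 (adjusted p = 0.12), and Atp2a2 (SERCA2), the pump that refills the store, had a difference of -0.08 (adjusted p = 0.5). Cacna1c, the pore of the L-type channel, read 0.41 and 0.32 in 4-week iCM and 2.10 and 1.88 in MGT D14 (change -1.62, SE 0.14, adjusted p = 2.1e-07). Casq2, which buffers calcium in the store, fell by 1.34 (adjusted p = 4.7e-07), and Jph2, which ties the store to the surface membrane, by 1.64 (adjusted p = 0.00011). Cacna1g, a T-type channel of pacemaker cells, read -2.06 and -2.22 in 4-week iCM and -4.42 and -3.92 in MGT D14 and rose by 2.03 (adjusted p = 5.4e-07).

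Of 17 sodium, potassium and pacemaker channels, 5 rose and 1 fell, and 2 fell without 4-week iCM replicate 1 or without MGT D14 replicate 2. Kcnd3, the channel of the transient outward current, read -1.29 and -1.44 in 4-week iCM and -4.16 and -4.02 in MGT D14 (change 2.72, SE 0.13, adjusted p = 4e-10), and Kcnj12, an inward rectifier that sets the resting potential, read -2.56 and -2.65 in 4-week iCM and -5.57 and -4.97 in MGT D14 (change 2.66, SE 0.80, adjusted p = 0.01). Kcnh2, the channel of the rapid delayed rectifier, read -4.28 and -4.56 in 4-week iCM and -1.43 and -1.57 in MGT D14 (change -2.92, SE 0.19, adjusted p = 1.5e-08). The call of Kcnj12 was lost without MGT D14 replicate 1 (2.36, adjusted p = 0.065).

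At the intercalated disc, where neighbouring cardiomyocytes join, 6 of 17 genes fell and 2 rose, and 1 rose without 4-week iCM replicate 2 or without MGT D14 replicate 2. Gja5, connexin 40 of atrial and conduction cells, read -5.05 and -5.05 in 4-week iCM and -0.26 and -0.30 in MGT D14 (change -4.76, SE 0.15, adjusted p = 6e-12). Dsp, desmoplakin, read 2.65 and 2.88 in 4-week iCM and 4.94 and 4.79 in MGT D14 (change -2.10, SE 0.14, adjusted p = 1.7e-08), and Bves, a caveolar membrane protein, fell by 1.34. Gja1, connexin 43, the main ventricular gap junction protein, had a difference of -0.83 (adjusted p = 6.8e-06) and was not called. Cxadr, the coxsackievirus and adenovirus receptor of the disc, read 2.95 and 2.77 in 4-week iCM and 0.39 and 0.33 in MGT D14 and rose by 2.50 (adjusted p = 1.5e-09).

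The natriuretic peptides fell, while Npr1 and receptors for other circulating signals rose. Nppa, which encodes atrial natriuretic peptide, read -2.40 and -2.27 in 4-week iCM and 0.48 and 0.66 in MGT D14 (change -2.91, SE 0.14, adjusted p = 7e-10). Nppb, which encodes the brain form, read -3.92 and -4.02 in 4-week iCM and -2.07 and -1.84 in MGT D14 (change -2.01, SE 0.22, adjusted p = 2.47e-06). Mb, the oxygen carrier myoglobin, read -1.21 and -0.84 in 4-week iCM and 3.74 and 3.67 in MGT D14 (change -4.73, SE 0.36, adjusted p = 5.8e-08). Of the 12 genes in this list 7 rose and 3 fell. Ednra, the endothelin receptor A, read 1.54 and 1.49 in 4-week iCM and -3.90 and -3.72 in MGT D14 (change 5.33, SE 0.20, adjusted p = 4.3e-11). Agtr1a, the type 1 angiotensin receptor, read 1.504 and 1.61 in 4-week iCM and -2.70 and -2.93 in MGT D14 (change 4.37, SE 0.17, adjusted p = 6.4e-11). Npr1, the receptor of atrial natriuretic peptide, was at least 11.9-fold higher (adjusted p = 6.1e-08), and Corin, the protease that activates the peptide, rose by 3.65. Adrb1, the main beta-adrenergic receptor of the heart, rose by 2.16, and Chrm2, the muscarinic receptor that slows it, by 2.05 (adjusted p = 1.8e-06 and 0.0005). The call of Adrb1 was lost over the mean of its probes (0.88, adjusted p = 0.00045). Several of these receptors are also expressed by fibroblasts and perivascular cells, and which cells carried the transcripts was not tested.

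Cardiac transcription factors rose in 11 of 25 cases and fell in 1. Hand2, a factor of the second heart field, read 3.00 and 3.03 in 4-week iCM and 0.56 and 0.62 in MGT D14 (change 2.43, SE 0.10, adjusted p = 1.7e-10), and Gata6 read 4.13 and 4.09 in 4-week iCM and 1.92 and 1.93 in MGT D14 (change 2.18, SE 0.09, adjusted p = 8.7e-11). Irx5, an Iroquois factor that patterns repolarisation, was at least 2.69-fold higher (adjusted p = 0.00075), and its call was lost with normexp background correction (0.55, adjusted p = 0.039). Isl1, a factor of cardiac progenitors, was at least 6.94-fold higher (adjusted p = 3.9e-07). Tbx20 and Myocd, which act on the chamber and smooth and cardiac muscle programmes, were not called, with changes of -0.38 and -0.17. Prdm16 was the 1 that fell, by 1.35 (adjusted p = 0.00079).

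The delivered factors diverged. Tbx5 read -0.14 and 0.05 in 4-week iCM and -1.67 and -1.80 in MGT D14 (change 1.69, SE 0.24, adjusted p = 3.2e-05), and Gata4 read 1.77 and 2.41 in 4-week iCM and 2.83 and 2.79 in MGT D14, a change of -0.72 (adjusted p = 0.00082) that did not reach 2-fold, but was called lower without 4-week iCM replicate 2, at -1.04 (adjusted p = 3.4e-06). Mef2c read -1.06 and -1.45 in 4-week iCM and 0.07 and -0.05 in MGT D14 (change -1.27, SE 0.50, adjusted p = 0.041). Its call was lost under quantile normalization (-1.18, adjusted p = 0.057), with no filter on dim probes (-1.27, adjusted p = 0.054), without 4-week iCM replicate 1 (-1.46, adjusted p = 0.065), without 4-week iCM replicate 2 (-1.07, adjusted p = 0.18), without MGT D14 replicate 1 (-1.21, adjusted p = 0.13) and without MGT D14 replicate 2 (-1.33, adjusted p = 0.099). Whether these probes read the retroviral transcript, the endogenous genes or both was not determined here.

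Among fuels, a part of the genes of fatty acid use rose and a part of those of glycolysis fell. Of 25 genes of fatty acid oxidation, 8 were higher and none was lower (median 0.53). Pdk4, the kinase that closes the entry of pyruvate into the mitochondrion, read 5.10 and 5.02 in 4-week iCM and 1.41 and 1.38 in MGT D14 (change 3.66, SE 0.16, adjusted p = 2.6e-10). Cd36, the fatty acid transporter, read 1.23 and 1.33 in 4-week iCM and -1.43 and -1.35 in MGT D14 (change 2.67, SE 0.20, adjusted p = 4e-08), and Cpt1b, the muscle carnitine transferase, rose by 1.69 (adjusted p = 1.9e-09). Acadl and Hadha, enzymes of the beta-oxidation spiral, had a difference of 0.83 (adjusted p = 4.2e-06) and 0.39 (adjusted p = 0.0011) and were not called. Fabp3, the fatty acid binding protein of heart muscle, had a difference of -0.98 (adjusted p = 1.1e-05) in the other direction and was not called; it was called lower without 4-week iCM replicate 1, at -1.12 (adjusted p = 2.5e-05). Cd36 and Pdk4 are also abundant in adipocytes, whose markers rose in 14 of 16 cases. Which cells carried the Cd36 and Pdk4 transcripts was not tested.

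Of 12 regulators of mitochondrial genes, 3 rose and 3 fell (median 0.07). Ppargc1a, the coactivator that drives mitochondrial genes, read 0.42 and 0.52 in 4-week iCM and -2.78 and -3.26 in MGT D14 (change 3.49, SE 0.20, adjusted p = 2.9e-09), and Klf15, a regulator of fatty acid and amino acid use in heart, read 1.93 and 1.68 in 4-week iCM and -1.20 and -1.28 in MGT D14 (change 3.05, SE 0.14, adjusted p = 3.8e-10). The 3 that fell, the nuclear receptors Esrrg, Esrrb and Rxrg, had changes of -1.10 (adjusted p = 0.014), -1.02 (adjusted p = 0.00052) and -1.01 (adjusted p = 6.5e-05), each near the 2-fold limit, and Esrrb was above background on 1 of the 2 4-week iCM arrays. Each lost its call under 3 or more alternatives, and without 4-week iCM replicate 1 none of the 3 was called. The respiratory chain itself moved little: 2 of 29 genes were called, Cox8b and Cox6a2, the muscle isoforms of complex IV, which rose by 1.32 and 1.21. Of 28 genes of glycolysis and the hypoxia response, 11 fell and 1 rose. Slc16a3, the lactate exporter MCT4, read -0.62 and -0.36 in 4-week iCM and 3.83 and 4.11 in MGT D14 (change -4.46, SE 0.19, adjusted p = 1.4e-10). Ankrd37 and Egln3, targets of hypoxia-inducible factor, fell by 3.64 and 2.31, Pdk1 by 2.16 and Vegfa by 1.53. Slc2a3, a high-affinity glucose transporter, was the 1 that rose, by 2.60 (adjusted p = 1.7e-10). Ldha, which makes lactate, had a difference of -0.80 (adjusted p = 4.5e-05) and was not called; over the mean of its probes it was called lower, at -1.46 (adjusted p = 5.3e-10).

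Of 16 adipocyte markers tested, 14 were higher and none was lower, with a median change of 4.21 that counts readings below background. Over the 11 with probes above background on all 4 arrays, 10 were higher and the median was 1.94, below that of epicardial genes (2.69), flavin monooxygenases and drug-metabolising enzymes (2.79), glucocorticoid-responsive genes (2.07) and natriuretic and adrenergic signalling (2.045) under the same filter. Cfd (adipsin), a complement protease secreted by fat cells, read 3.42 and 3.44 in 4-week iCM and -7.35 and -8.78 in MGT D14 and was at least 1206-fold higher (adjusted p = 8.3e-06). Adipoq, the hormone adiponectin, read 2.21 and 2.21 in 4-week iCM and -7.66 and -8.77 in MGT D14 and was at least 518-fold higher (adjusted p = 2.1e-10). Retn, resistin, read 2.67 and 2.37 in 4-week iCM and -6.32 and -6.02 in MGT D14 (change 8.68, SE 0.42, adjusted p = 5.4e-10). A protein of the lipid droplet rose with the hormones: Plin1, perilipin, read 0.03 and -0.17 in 4-week iCM and -6.81 and -6.98 in MGT D14 and was at least 106-fold higher (adjusted p = 1.1e-07). Fabp4, the lipid chaperone of fat cells and capillaries, read 6.57 and 6.34 in 4-week iCM and 0.35 and 0.50 in MGT D14 (change 6.03, SE 0.15, adjusted p = 1.2e-12). Pparg, the transcription factor that directs fat cell formation, rose by 1.07 (adjusted p = 3.3e-08), and its call was lost with the authors' log2 values (0.99, adjusted p = 2e-07). Ucp1, the uncoupling protein of brown fat, was not well above background on any of the 4 arrays.

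LacZ D14, neoCF and neoCM were low in Cfd and Adipoq. Cfd stood at -7.22 and -3.11 on LacZ D14 arrays and at -6.02 and -7.04 on neoCF arrays. Adipoq stood at -7.19 and -6.13 on LacZ D14 arrays and at -5.87 and -6.52 on neoCF arrays. On the neoCM arrays, scanned on the day of 4-week iCM, Cfd lay at -6.94 and -6.99 and Adipoq at -5.78 and -6.14. The letters TTGCNNAA, a form of the C/EBP site, were in a window of 4 of 12 genes of this list (33.3%). The share over tested genes with a window was 9.78%. The same letters were found for 5 of 15 flavin monooxygenases and drug-metabolising enzymes (33.3%) and for 26.7% of glucocorticoid-responsive genes with a window. The PPAR element, 2 direct copies of AGGTCA spaced by 1 base, was in none of the 12, against 0.0574%. The window of Plin1 is shown since it has the largest rise among members with the C/EBP letters, which stand in capitals at 2 places.
Plin1 (chr7:79732777-79733026, minus strand): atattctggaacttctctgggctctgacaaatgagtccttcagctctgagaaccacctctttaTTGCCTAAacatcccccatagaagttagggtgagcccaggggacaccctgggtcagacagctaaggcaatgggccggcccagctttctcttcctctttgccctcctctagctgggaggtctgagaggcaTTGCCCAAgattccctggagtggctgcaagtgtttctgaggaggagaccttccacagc

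A further 2 lists were written after the values had been seen, and are described without weight as support. In the first, 14 of 19 genes known to respond to glucocorticoid hormone were higher and none was lower (median 2.07). Zbtb16, a zinc finger factor, read 4.30 and 4.12 in 4-week iCM and -3.59 and -3.53 in MGT D14 (change 7.77, SE 0.28, adjusted p = 3.3e-11), and Hif3a, a hypoxia-inducible factor subunit, read 1.34 and 1.57 in 4-week iCM and -5.82 and -5.30 in MGT D14 (change 7.02, SE 0.32, adjusted p = 3.3e-10). Fkbp5, the chaperone that damps the receptor, read 4.50 and 4.75 in 4-week iCM and 0.83 and 0.96 in MGT D14 (change 3.73, SE 0.09, adjusted p = 8.8e-13), and Tsc22d3 (GILZ) read 6.17 and 5.89 in 4-week iCM and 2.42 and 2.33 in MGT D14 (change 3.66, SE 0.10, adjusted p = 2.1e-12). Lcn2, lipocalin 2, and Per1, a clock gene, rose by 5.43 and 1.97. Nr3c1, the receptor itself, had a difference of -0.57 (adjusted p = 9.7e-05), and Mt1, Dusp1 and Errfi1 were not called. On LacZ D14 arrays the list's median difference from MGT D14 was 0.07 and -0.02, and on neoCF arrays 1.34 and 1.26. The labels name no glucocorticoid, and the composition of the base medium was not given in the sources used here.

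The classical glucocorticoid response element, AGAACA and its reverse complement spaced by 3 bases, was in the window of 1 of the 13928 tested genes, and that gene was Sgk1, a kinase of the list. Sgk1 read 4.26 and 4.05 in 4-week iCM and 1.86 and 2.03 in MGT D14 (change 2.21, SE 0.12, adjusted p = 2e-09). The element lies before 1 of the 6 start sites that the table gives for it, at positions -189 to -175, and stands in capitals here. The letters AGAACA alone were in a window of 2 of 15 genes of the list (13.3%), against 14.3% of tested genes with a window.
Sgk1 (chr10:21993640-21993889, plus strand): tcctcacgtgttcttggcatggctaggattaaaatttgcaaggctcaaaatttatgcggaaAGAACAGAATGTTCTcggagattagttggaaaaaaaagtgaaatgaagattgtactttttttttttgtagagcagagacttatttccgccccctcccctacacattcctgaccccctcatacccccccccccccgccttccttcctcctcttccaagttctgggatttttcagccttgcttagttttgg

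In the second added list, 16 of 20 flavin monooxygenases and enzymes of drug and steroid metabolism were higher and none was lower, and 10 of 14 were higher where only probes above background on all 4 arrays were kept. Beyond the Fmo genes, Cyp2b10, a P450 that responds to phenobarbital in liver, was at least 160.0-fold higher (adjusted p = 3.4e-08). Cyp7b1, which hydroxylates oxysterols, read 2.41 and 2.18 in 4-week iCM and -2.68 and -2.95 in MGT D14 (change 5.11, SE 0.21, adjusted p = 8.8e-11), and Cyp1b1, a P450 of mesenchymal cells, read 4.77 and 5.04 in 4-week iCM and 1.59 and 1.503 in MGT D14 (change 3.36, SE 0.09, adjusted p = 2.1e-12). The call of Cyp1b1 was lost with all 34 arrays in the fit (3.36, adjusted p = 0.11) and with slide as a random block (3.33, adjusted p = 0.071). Por, the reductase that serves all of these P450 enzymes, had a difference of 0.43 (adjusted p = 0.0073) and was not called. On LacZ D14 arrays the list's median difference from MGT D14 was 1.68 and 1.93, between the MGT D14 and the 4-week iCM values of 3.23 and 3.41.

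**Figure D3:**
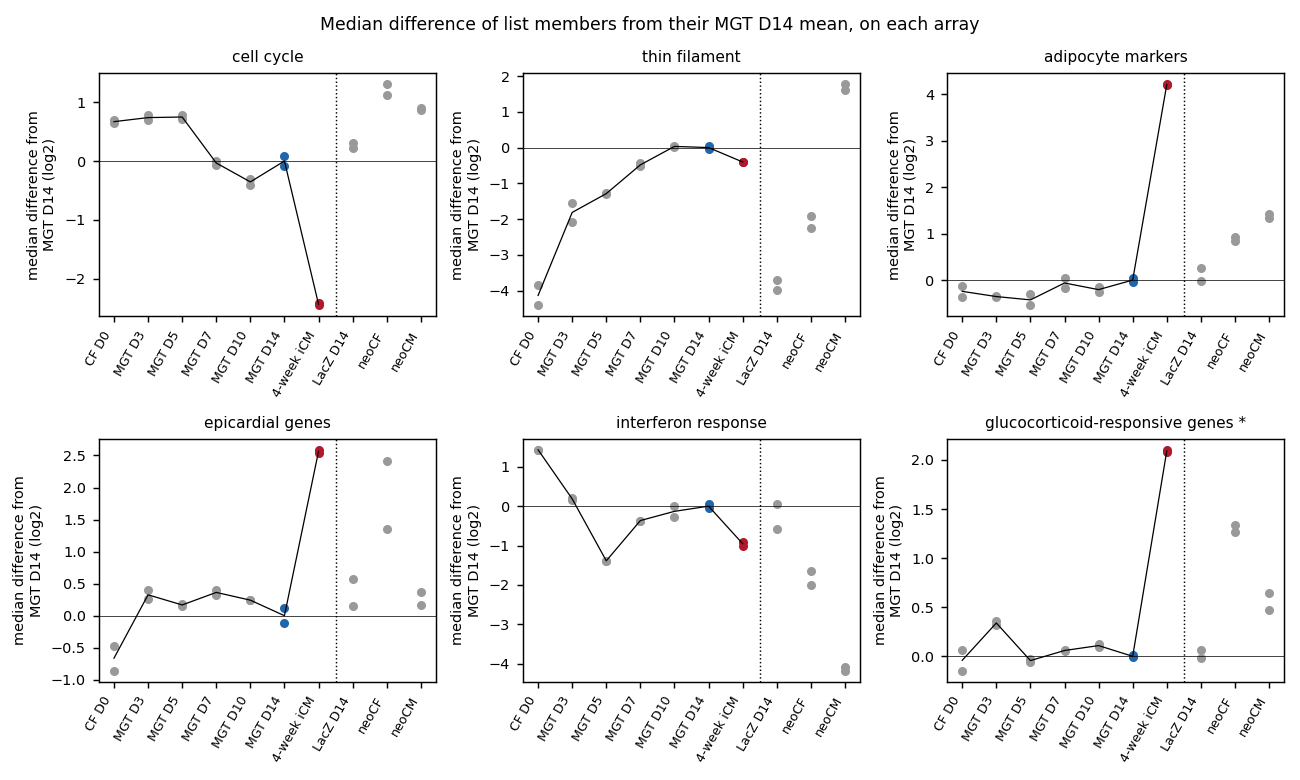
Median over list members of the difference from their own MGT D14 mean (log2), for each array of fibroblasts before infection, MGT cells by day, 4-week iCM (red) and, right of the dotted line, LacZ D14, neoCF and neoCM; lines join group means, MGT D14 is blue, and the asterisk marks a list written after values had been seen. Adipocyte markers lie between -0.55 and 0.04 up to day 14 and stand at 4.21 and 4.22 in 4-week iCM; thin filament genes climb until day 10 and lie at -0.41 and -0.40 in 4-week iCM.

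Epicardial genes rose in 12 of 15 cases and fell in 1 (median 2.56). Wt1, the transcription factor that marks the epicardium, read 4.17 and 3.93 in 4-week iCM and 1.80 and 1.95 in MGT D14 (change 2.17, SE 0.10, adjusted p = 2.2e-10). Surface and cytoskeletal proteins of the layer rose too: Muc16 (CA125) read 2.12 and 1.80 in 4-week iCM and -3.30 and -2.68 in MGT D14 (change 4.95, SE 0.26, adjusted p = 1.1e-09), and Krt8, a simple epithelial keratin, read 2.47 and 2.71 in 4-week iCM and -2.04 and -1.42 in MGT D14 (change 4.33, SE 0.33, adjusted p = 7.1e-08). Rspo1, a Wnt agonist of mesothelium, read 5.84 and 5.57 in 4-week iCM and 0.62 and 0.95 in MGT D14 (change 4.92, SE 0.13, adjusted p = 1.5e-12). Cdh1, the adherens protein of epithelia, went the other way and was at least 9.51-fold lower (adjusted p = 8.6e-10). Msln, mesothelin, rose by 1.81 and Upk3b, a uroplakin of mesothelium, by 2.82 (adjusted p = 1.5e-06 and 2.5e-10). On neoCF arrays the median difference of this list from MGT D14 was 2.42 and 1.36, as against 2.59 and 2.53 in 4-week iCM.

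Fibroblast identity genes rose in 6 of 24 cases and fell in 2. Lum, lumican, read 5.76 and 5.52 in 4-week iCM and 0.62 and 0.86 in MGT D14 (change 4.90, SE 0.12, adjusted p = 8.8e-13), and Dpt, dermatopontin, read 0.70 and 0.79 in 4-week iCM and -3.44 and -3.30 in MGT D14 (change 4.12, SE 0.10, adjusted p = 9.7e-13). Pdgfra, the receptor that marks resident cardiac fibroblasts, read 3.46 and 3.48 in 4-week iCM and 0.69 and 0.53 in MGT D14 (change 2.86, SE 0.07, adjusted p = 6.3e-13), and Tcf21, their transcription factor, rose by 1.43 (adjusted p = 2.3e-08). Postn, periostin of activated fibroblasts, read 3.51 and 3.39 in 4-week iCM and 5.26 and 5.26 in MGT D14 (change -1.82, SE 0.12, adjusted p = 1.6e-08), and Meox1, a factor of activated fibroblasts, read -6.46 and -6.44 in 4-week iCM and -1.495 and -1.56 in MGT D14 (change -4.92, SE 0.10, adjusted p = 1.1e-13), above background on 1 of the 2 4-week iCM arrays. The call of Postn was lost with all 34 arrays in the fit (-1.82, adjusted p = 0.16) and with slide as a random block (-1.81, adjusted p = 0.11). That of Tcf21 was lost with all 34 arrays in the fit (1.43, adjusted p = 0.18) and with slide as a random block (1.43, adjusted p = 0.12). Col1a1 and Thy1 were not called, with changes of -0.31 and -0.57. Lum, Dpt, Pdgfra and Tcf21 are known from resting fibroblasts, but Fap, fibroblast activation protein, was also among the 6 that rose.

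The myofibroblast and smooth muscle list held no rise and 6 falls among 20 genes. Cnn1, calponin, read 2.77 and 2.75 in 4-week iCM and 4.55 and 4.43 in MGT D14 (change -1.73, SE 0.09, adjusted p = 9.6e-10), Thbs1, an activator of latent TGF-beta, fell by 1.61, and Actg2, enteric smooth muscle actin, by 2.78. The call of Cnn1 was lost with all 34 arrays in the fit (-1.73, adjusted p = 0.067). Acta2, smooth muscle alpha actin, had a difference of -0.90 (adjusted p = 1.7e-05), short of 2-fold.

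Matrix genes moved in both directions. Mmp3, stromelysin 1, read 6.15 and 6.01 in 4-week iCM and -0.12 and -0.18 in MGT D14 (change 6.22, SE 0.27, adjusted p = 1.9e-10), and Timp4, an inhibitor of such proteases that is abundant in heart, read -1.24 and -1.31 in 4-week iCM and -4.83 and -4.78 in MGT D14 (change 3.53, SE 0.62, adjusted p = 0.00023). Mmp12 and Mmp9, proteases of macrophages and neutrophils, fell: Mmp12 read -5.99 and -6.02 in 4-week iCM and -3.27 and -2.74 in MGT D14, above background on 1 of the 2 4-week iCM arrays, and Mmp9 was at least 2.44-fold lower (adjusted p = 0.00021). Col10a1, the collagen of growing cartilage, read -2.20 and -2.40 in 4-week iCM and 2.53 and 2.39 in MGT D14 (change -4.76, SE 0.42, adjusted p = 3e-07), Acan, aggrecan, read -3.15 and -3.05 in 4-week iCM and 0.22 and 0.17 in MGT D14 (change -3.29, SE 0.23, adjusted p = 2e-08), and Eln, elastin, fell by 2.44. Cartilage and bone genes as a list held 7 falls and 1 rise of 14 (no rise without MGT D14 replicate 1), with 4 falls under normexp background correction and with the authors' log2 values, and 3 of 8 genes where only probes above background on all 4 arrays were kept. Comp, a pentameric matrix protein of tendon, rose by 3.82, and Sparcl1 (hevin) by 2.94 (adjusted p = 5.7e-10 and 2.8e-10).

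Macrophage markers fell in 11 of 22 cases and rose in none (median -0.99). Without MGT D14 replicate 2, 7 of 22 fell. Cx3cr1, the fractalkine receptor, read -0.96 and -1.39 in 4-week iCM and 4.92 and 5.10 in MGT D14 (change -6.19, SE 0.34, adjusted p = 2.4e-09). Adgre1, the F4/80 antigen, read 1.62 and 1.55 in 4-week iCM and 4.05 and 4.09 in MGT D14 (change -2.48, SE 0.29, adjusted p = 5.1e-06), and Csf1r, the receptor on which macrophages depend, read 4.51 and 4.41 in 4-week iCM and 5.91 and 5.99 in MGT D14 (change -1.49, SE 0.30, adjusted p = 0.00066). Other defining markers were not called: C1qa, a complement component made by tissue macrophages, had a difference of -0.28 (adjusted p = 0.55) and Cd68, a lysosomal protein, of -0.29 (adjusted p = 0.64). All 22 members tested were well above background on all 4 arrays, and Cd163, a scavenger receptor, was not tested since it was not above background on both arrays of any group in the fit. Macrophage transcripts were thus present in both groups, and the list's summed level, on a linear scale relative to the 75th percentile, was 228 and 223 in 4-week iCM and 432 and 476 in MGT D14.

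Interferon-stimulated genes fell in 16 of 33 cases and rose in none (median -0.90). With all 34 arrays in the fit, 9 of 33 fell, and 9 also with slide as a random block. Isg15, a ubiquitin-like modifier, read 4.25 and 4.07 in 4-week iCM and 6.30 and 6.16 in MGT D14 (change -2.07, SE 0.15, adjusted p = 3.2e-08), and Irf7, the factor that amplifies the response, read -1.53 and -1.64 in 4-week iCM and 0.88 and 0.82 in MGT D14 (change -2.44, SE 0.17, adjusted p = 2.3e-08). Mx1, an antiviral GTPase, fell by 2.68 (adjusted p = 1.6e-05). For each of these genes both 4-week iCM arrays were below both MGT D14 arrays.

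Of 28 cytokines and chemokines tested, 11 fell and 6 rose. Il1b was at least 13.9-fold lower (adjusted p = 3e-09), Il6 read -0.31 and -0.44 in 4-week iCM and 3.03 and 2.82 in MGT D14 (change -3.30, SE 0.13, adjusted p = 5.8e-11), and Tnf read -4.62 and -4.45 in 4-week iCM and -1.06 and -0.79 in MGT D14 (change -3.61, SE 0.25, adjusted p = 2.2e-08): all 3 are inflammatory cytokines. Cxcl14 read -3.78 and -3.14 in 4-week iCM and 1.25 and 1.82 in MGT D14 (change -4.99, SE 0.24, adjusted p = 4.3e-10). In the other direction Cxcl13, which draws B cells, read 4.67 and 4.59 in 4-week iCM and -2.92 and -2.70 in MGT D14 (change 7.44, SE 0.50, adjusted p = 1.7e-08), and Il33, an alarmin of stromal cells, read 1.41 and 1.32 in 4-week iCM and -2.30 and -2.39 in MGT D14 (change 3.71, SE 0.17, adjusted p = 3e-10).

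Complement genes rose in 10 of 16 cases and fell in 3 (median 1.66), with 1 fall without 4-week iCM replicate 1 or without MGT D14 replicate 2. C4b read 4.39 and 4.18 in 4-week iCM and -0.08 and -0.37 in MGT D14 (change 4.51, SE 0.18, adjusted p = 7.9e-11), and C3, the central component, read 7.62 and 7.27 in 4-week iCM and 4.75 and 4.92 in MGT D14 (change 2.61, SE 0.13, adjusted p = 7.2e-10). C2, the convertase partner of C4b, rose by 3.54, and Cfb of the alternative pathway by 3.67. The call of Cfb was lost with all 34 arrays in the fit (3.67, adjusted p = 0.056). The members that fell were Cfp (properdin), C3ar1 and C5ar1, by 1.21, 1.23 and 1.28 (adjusted p = 0.003, 0.011 and 0.024). The call of C3ar1 was lost without 4-week iCM replicate 1 (-0.98, adjusted p = 0.087) and without MGT D14 replicate 2 (-1.05, adjusted p = 0.078). That of C5ar1 was lost without 4-week iCM replicate 1 (-1.11, adjusted p = 0.11) and without MGT D14 replicate 2 (-1.12, adjusted p = 0.12). The receptors for C3a and C5a are carried by myeloid cells, and 11 of 22 macrophage markers fell. Whether the falls are linked was not tested.

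Markers of further cell types were mixed. Lyve1, the hyaluronan receptor of lymphatic vessels and some macrophages, read 2.24 and 2.20 in 4-week iCM and -3.74 and -4.35 in MGT D14 (change 6.27, SE 1.06, adjusted p = 0.00016), while Sox17, a factor of endothelium, was at least 2.5-fold lower (adjusted p = 5.5e-06). The call of Sox17 was lost with all 34 arrays in the fit (-3.34, adjusted p = 0.059). Pecam1 and Cdh5, defining endothelial proteins, had a difference of -0.48 (adjusted p = 0.0017) and -0.99 (adjusted p = 0.14). Without MGT D14 replicate 1, Cdh5 was called lower, at -2.22 (adjusted p = 0.00028). Of 21 endothelial genes 5 rose and 4 fell (median 0.17), and without MGT D14 replicate 2, 8 rose (median 0.71). Ngfr, the low-affinity nerve growth factor receptor of Schwann cells, read -4.98 and -4.88 in 4-week iCM and -1.32 and -1.59 in MGT D14 (change -3.47, SE 0.15, adjusted p = 1.4e-10), and Sox10, the glial factor, fell by 1.11 (adjusted p = 2.1e-05), whereas Mbp, myelin basic protein, rose by 2.47 and Stmn2 by 4.18. The call of Sox10 was lost with normexp background correction (-0.91, adjusted p = 0.00048), under quantile normalization (-0.88, adjusted p = 0.00011), with the authors' log2 values (-0.86, adjusted p = 8.5e-05) and without MGT D14 replicate 1 (-0.90, adjusted p = 0.00047). Among pericyte markers 3 of 10 rose and 2 fell, with Rgs5 at a change of 0.66 (adjusted p = 0.063) and Cspg4 (NG2) lower by 1.68.

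Imprinted growth genes rose in 7 of 17 cases and fell in none. Dlk1, a non-canonical Notch ligand and inhibitor of fat cell formation, read 0.66 and 0.97 in 4-week iCM and -4.55 and -4.94 in MGT D14 (change 5.56, SE 0.16, adjusted p = 4.5e-12). H19, a maternally expressed long RNA, read 4.81 and 5.08 in 4-week iCM and -0.02 and 1.18 in MGT D14 (change 4.36, SE 0.37, adjusted p = 1.9e-07), and Mest, a paternally expressed gene, read 1.70 and 1.67 in 4-week iCM and -2.02 and -0.57 in MGT D14 (change 2.98, SE 0.37, adjusted p = 9.7e-06). Igf2, the growth factor that shares a locus with H19, was weak, with a change of -0.24 (adjusted p = 0.6). Fresh neoCF held more of these transcripts: H19 lay at 7.83 and 7.78 there and Dlk1 at 6.10 and 5.92. Dlk1 and Adipoq thus rose in the same samples.

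Genes of growth factor pathways moved in both directions. Igfbp6, a carrier that favours IGF2, read 6.85 and 6.61 in 4-week iCM and 1.11 and 1.35 in MGT D14 (change 5.50, SE 0.16, adjusted p = 3.2e-12), whereas Igfbp2 and Igfbp7 fell by 1.99 and 1.79. Of 29 Wnt pathway genes 15 rose and 7 fell. Sfrp1, a secreted Wnt inhibitor, read 0.20 and 0.75 in 4-week iCM and -4.01 and -3.39 in MGT D14 (change 4.18, SE 0.24, adjusted p = 3e-09), Wnt4 and Wnt5a, ligands, rose by 2.96 and 1.85, and Wif1, another inhibitor, read -1.72 and -1.73 in 4-week iCM and 2.06 and 1.88 in MGT D14 (change -3.70, SE 0.49, adjusted p = 1.8e-05). Axin2, the feedback target of canonical signalling, rose by 1.07 (adjusted p = 0.0099), while Lef1, a nuclear effector, read -4.82 and -4.76 in 4-week iCM and -2.18 and -2.24 in MGT D14 and fell by 2.58. The call of Axin2 was lost with normexp background correction (0.75, adjusted p = 0.0034), under quantile normalization (1.17, adjusted p = 0.075), without 4-week iCM replicate 1 (0.96, adjusted p = 0.058) and without MGT D14 replicate 2 (1.001, adjusted p = 0.055).

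In the TGF-beta and BMP pathway 9 of 28 genes rose and 5 fell. The ligands Tgfb2 and Inhba (activin A) fell by 1.81 and 1.63, and Bmp6 and Bmp4 rose by 3.02 and 1.62. Tgfbr3, the co-receptor betaglycan, read 3.23 and 3.44 in 4-week iCM and -0.73 and -0.81 in MGT D14 (change 4.10, SE 0.13, adjusted p = 6.7e-12). Id1, a target of BMP signalling, rose by 1.49, and Smad7, an inhibitor induced by TGF-beta, had a difference of -0.62 (adjusted p = 5.9e-05). In the Notch pathway 5 of 14 genes rose and 5 fell. Jag1, a ligand, rose by 1.88, and Notch1 and the target Heyl fell by 1.94 and 2.18. The receptor Notch4 and the target Hey2 were among the rises, and the ligand Jag2 among the falls. The call of Hey2 was lost with normexp background correction (0.66, adjusted p = 0.00073). FGF and ERK targets were at 2 rises and 2 falls of 23, with Dusp6, Etv4 and Etv5 at changes of 0.40, 0.23 and 0.18, none of them called.

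Of the glutathione transferases, Gsta3 and Gstm1 rose, with Gsta3 at 6.36 and 6.03 in 4-week iCM and -0.42 and -0.45 in MGT D14 (change 6.63, SE 0.21, adjusted p = 7.4e-12) and Gstm1 at 6.04 and 5.78 in 4-week iCM and 2.18 and 2.12 in MGT D14 (change 3.76, SE 0.13, adjusted p = 1.8e-11), while Nqo1, a classical target of NRF2, had a difference of 0.43 (adjusted p = 0.0059). Gsta1 and Gsta2, close homologues that a probe may not separate, fell by 2.83 and 2.90 (adjusted p = 8.5e-06 and 0.027). The call of Gsta2 was lost under quantile normalization (-2.70, adjusted p = 0.1), without 4-week iCM replicate 1 (-3.01, adjusted p = 0.07), without 4-week iCM replicate 2 (-2.79, adjusted p = 0.098), without MGT D14 replicate 1 (-2.76, adjusted p = 0.1) and without MGT D14 replicate 2 (-3.04, adjusted p = 0.072). The unfolded protein and amino acid response held 8 falls and no rise of 26. Trib3, Mthfd2 and Asns, targets of ATF4, fell by 2.31, 2.14 and 1.28, and Fgf21 by 2.59, while the chaperone Hspa5 had a difference of -0.31 and was not called. Among regulators of chromatin, Tet1, Ezh2 and Dnmt3a fell by 2.12, 1.34 and 1.32, with 4 of 20 lower and none higher. Rbm20, the splicing factor of titin, fell by 1.63 (adjusted p = 0.0023).

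The later change was set beside an earlier one of the same route, MGT day 10 against day 3, on arrays that enter neither side of the first comparison. Both comparisons came from the same fit and share its estimate of each gene's spread. There, 885 genes (4.85%) were higher on day 10 and 859 (4.71%) lower, 9.56% in all. Of the 1863 genes higher in 4-week iCM, 169 (9.07%) had risen earlier and 262 (14.1%) had fallen, and these were 19.1% of the earlier rises and 30.5% of the earlier falls. Of the 2470 genes lower in 4-week iCM, 299 (12.1%) had risen earlier and 230 (9.31%) had fallen, which were 33.8% of the earlier rises and 26.8% of the earlier falls.

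Cell cycle genes had fallen early in 21 of 30 cases, with 1 early rise: Mki67 had a difference of -0.91 from day 3 to day 10 and of -3.22 from day 14 to 4 weeks. Thin filament genes had risen early in 5 of 10 cases with no fall, and none was called higher late in the fit of 24 arrays. Actc1 had a difference of 1.54 early and of -2.44 late. Nppa had a difference of -0.52 early and -2.91 late, Tnnt3 of 3.54 and -3.80, and Gja5 of -0.24 and -4.76. Imprinted growth genes ran from down to up, with 8 of 17 lower in the first interval and 7 higher in the second: Dlk1 had a difference of -3.59 and then of 5.56. Adipocyte markers had held 1 early rise and 2 early falls of 16, with Adipoq at an early change of 0.27, and their late rise has no counterpart between days 3 and 10. The intervals differ in length and in scan day, and the difference between them was not tested.

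**Figure D4:**
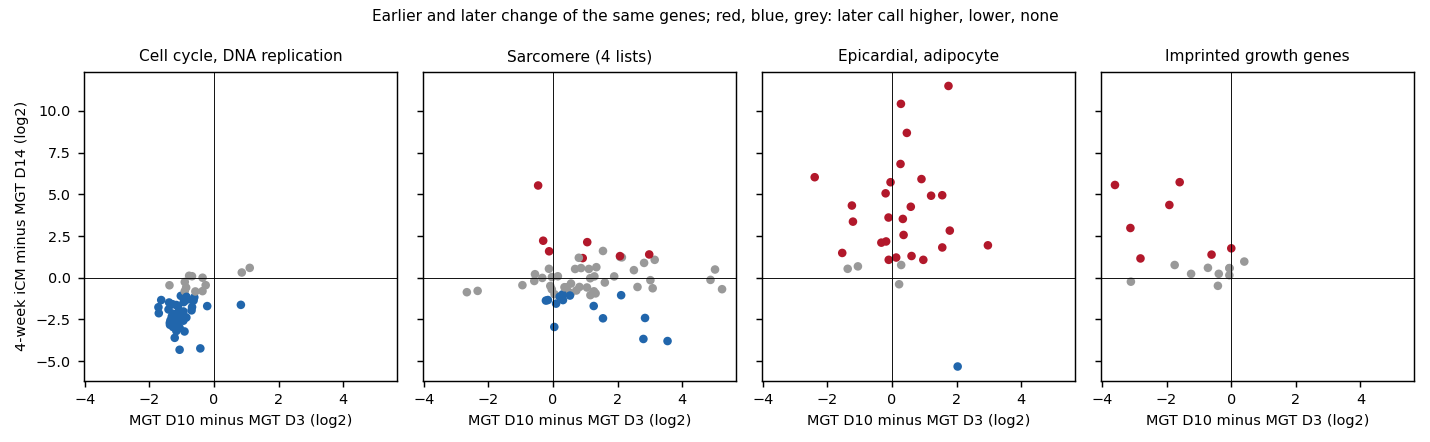
Change from MGT day 3 to day 10 (horizontal, log2) and from MGT D14 to 4-week iCM (vertical, log2) for members of the lists named above each panel, 1 point a gene, coloured by the later call. Cell cycle and DNA replication genes lie mostly in the lower left, sarcomere genes spread to the right around a later change of 0, and epicardial and adipocyte genes lie mostly above 0 with Cdh1 as the low point.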

How the data were processed

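RNA of 34 samples was hybridised to 1-colour Agilent mouse arrays, 1 array a sample and 2 a group. The deposited scanner files hold the fluorescence intensity of each spot, which per the file headers came from Agilent Feature Extraction 10.7.3.1 after background subtraction. A deposited table of log2 values of the same arrays, whose centring and scaling are not stated, served as an alternative; its columns correlated at 0.982 to 0.996 with the log2 processed intensity and had medians from 7.49 to 7.52. The submitters' processing notes name limma, with no version.

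The processed intensity was taken to log2 and set against the array's own 75th percentile. Spots of a probe were averaged, control spots left out, and 39217 probes kept that stood well above background on both arrays in 1 or more of the 12 groups in the fit. The brightest probe stood for a gene, and 895 called genes had more than 1 kept probe, of which 27 had a probe at least 2-fold in the opposite direction. Names came from accessions or symbols matched to RefSeq (26158 probes through an accession, 3130 through the symbol, 911 through an older one). Genes of near-identical sequence may share signal.

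A model with a mean for each of 12 groups (24 arrays: fibroblasts before infection, MGT and LacZ cells, and 4-week iCM) was fitted with limma 3.58.1 in R 4.3.3. Both iCM arrays carry an evaluation mark from the scanner software's quality report and were kept. In a test on simulated data with changes of 1.5 and 3 (log2, 100 genes each among 18244), the comparison of 4-week iCM with MGT D14 recovered 82% and 97%, with 5 false calls, and that of days 10 and 3 recovered 88% and 98%, with 2 false calls. The simulated arrays carried only the spread between replicates and no effect of slide or scan day. The false calls there thus do not cover differences that come from slide or scan day in the real arrays. Replicate numbers did not pair the samples: deviations of same-numbered arrays correlated at 0.03. The precision is limited by 2 arrays a group.

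The 962 entries of 47 lists, 918 of them tested, and the samples compared were chosen with earlier results of these data known, and 2 more lists after values were seen. Genes named in the text were the 12 largest changes in each direction, the 4 largest in each list and direction, core members of each list and the delivered factors, with 11 more chosen after their values were seen, among them Ccnd2, the Mcm genes and the globins. The values of a few genes are not reported here. Alternatives covered background correction, scaling, the filter, probe choice, the arrays in the fit, a replicate block and leaving out each array. Probe positions are those of the array design (mm9), and promoters are from RefSeq tables on GRCm38.p6.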

Additional observations from a re-analysis of the deposited data

How the results depend on the processing

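Counts of 4-week iCM against MGT D14 stayed within 1.5 times of 1863 rises and 2470 falls under every alternative run except 1: the authors' log2 values gave 1612 falls. Leaving out each array gave 1728 to 1947 rises and 2231 to 2420 falls. The replicate block gave 1861 and 2465, and pairing by number was not borne out. For day 10 against day 3 (885 rises, 859 falls), normexp background correction gave 569 rises and 475 falls, probes above background on all 4 arrays compared gave 537 falls, and all 34 arrays in the fit gave 515 falls. Of 433 named genes, 313 were called. Of these, 240 kept the call under every alternative in which they were tested, while 73 lost it under at least 1. The alternative with probes above background on all 4 arrays compared tested 376 of the 433, and left out those given as at-least folds. Of the 120 not called, 14 were called under at least 1, among them Tnni3, Fabp3, Gata4, Myl2, Tnnt2, Cdh5 and Ldha. None of the 433 reversed. Across the alternatives, 24 to 28 cell cycle genes were lower (26 to 30 tested) and 10 to 14 adipocyte markers higher (11 to 16 tested). The cause of these changes was not tested. A random block for slide, added after seeing the data, needed all 34 arrays, because no group of the 24 spans 2 slides. It gave 1745 rises and 2359 falls, with a correlation within slides of -0.11. Only neoCM spans 2 slides, and 4-week iCM and MGT D14 each lie on 1 slide. The block therefore cannot separate slide from the change. The planned block within the 24 arrays was not run. Genes near background have bounds only.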
